A study of Homo sapiens with 11 samples.

Results

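The genes described here encode the proteins of the cytosolic ribosome in human cardiomyocytes kept in long-term culture. They were taken by symbol, as the rows of the count table named RPL or RPS with a number (and at most a closing A, X or L), together with RPLP0, RPLP1, RPLP2 and RPSA. The rule found 77 of 19990 genes, 47 of the large and 30 of the small subunit, and all 77 passed the filter on low counts. RPL3L, the muscle form of RPL3, was not analysed here, so RPL3 is given alone and other pairs of related ribosomal proteins are compared in its place. The cells were cardiomyocytes that had been differentiated from WTC11 at passage 63, a widely used line of human induced pluripotent stem cells. They came from a single differentiation driven by CHIR99021, a GSK3 inhibitor, at 6 to 12 µM and then IWP2, an inhibitor of Wnt secretion, at 5 µM. Wells of this differentiation, kept in RPMI1640 with B27 and insulin, were collected at Day 30 (4 wells), Day 60 (3 wells) and Day 113 (4 wells). Purity was checked by flow cytometry for cardiac troponin T at Day 16. All groups share the line and the differentiation, no other treatment is named, and day of culture and day of collection cannot be told apart. Poly(A) RNA was sequenced, and the wells are the replicates, so the p-values measure the spread between wells and not between differentiations.

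A ribosome joins a small subunit, which reads the mRNA, to a large subunit, which forms the peptide bond. Each subunit holds ribosomal RNA and a set of proteins that are made in near equal numbers, since each ribosome carries about a single copy of most of them. In vertebrates nearly all ribosomal protein mRNAs begin with a C followed by a run of pyrimidines, the terminal oligopyrimidine (TOP) tract, through which mTOR signalling and LARP1 set their translation. Some ribosomal proteins have a paralog that replaces them in part in certain tissues, of which RPL3L in heart and skeletal muscle is an example.

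The start of the gene is shown first, because the tract is the sequence that most ribosomal protein genes share and that the rule did not use. A run was counted where a C and at least 4 further C or T followed each other on the gene's own strand, beginning within 5 bases of the annotated start. RefSeq promoters (GRCh38.p14) were matched for 62 of the 77 genes, and 49 of these 62 (79.0%) held such a run, against 21.1% of all 27305 promoters in the table and 22.2% of the 13692 tested genes with a promoter. The 30-base windows below run from 20 bases before the annotated start to 10 bases after it, 5′ to 3′, with the run in capitals as far as the window reaches. RPS6 had the highest log2 fold change from Day 30 to Day 113 among ribosomal protein genes above 50 CPM, RPS19, RPLP0 and RPL12 were lower at Day 113, and RPL3 is the general form of RPL3L. RPS29, also lower at Day 113, and RPS27L show windows without a run. EEF2 and RACK1, described further on, are not ribosomal proteins under the rule and hold a run.
RPS6 (chr9:19380227-19380256, minus strand): gcgctaagcggaagttggCCCTCTTTTCCg
RPS19 (chr19:41860235-41860264, plus strand): gcccgggaaaccccgtcgttCCCTTTCCCC
RPLP0 (chr12:120201102-120201131, minus strand): ggcacgcgcgggcgcgaggCCCTTCTCTCg
RPL12 (chr9:127451397-127451426, minus strand): cttgtccgcgcgatttccggCCTCTCggct
RPL3 (chr22:39319614-39319643, minus strand): gacccgtaaggccgaccggCCTCTaccggc
RPS29 (chr14:49598701-49598730, minus strand): ttttcccccgagcgcgcagctggcagcggt
RPS27L (chr15:63157468-63157497, minus strand): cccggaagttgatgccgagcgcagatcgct
EEF2 (chr19:3985454-3985483, minus strand): tgagtgttgacgtcagcgttCTCTTCCgcc
RACK1 (chr5:181243897-181243926, minus strand): ccggcggggggcttttCTCTCTCTCTTTCa
The run was present both in RPS6 and in RPS19. From Day 30 to Day 113 RPS19 was called lower and RPS6 did not pass, as given further on. The part of the run in these changes was not tested. A match is a description of the letters at an annotated start, and a window without one says only that the run is not at that position.

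The libraries held 24071375 to 34546715 counts. Wells from 1 day were compared pair by pair, and their counts lay further apart than sampling noise allows (chi-square of 11.4 to 84.0 for each degree of freedom). Each well was counted as a sample, as the labels name it a replicate. The spread alone does not show that the wells are independent. All 9 cardiomyocyte markers were tested, with a summed level of 29994 to 41617 CPM at Day 30, 37368 to 43026 at Day 60 and 31086 to 32991 at Day 113 (CPM, the counts scaled to a common library size by TMM). Of these 9, 1 was higher and 2 lower at Day 113 than at Day 30. The summed level of 5 endothelial markers was 52.5 to 75.0 CPM at Day 30, 37.0 to 60.3 at Day 60 and 179 to 734 at Day 113, and 5 of 5 rose between Day 30 and Day 113. For 6 fibroblast markers the ranges were 3295 to 7657, 1991 to 3477 and 5272 to 12748 CPM, with 2 higher and 2 lower at Day 113 than at Day 30. Of 3 smooth muscle markers tested, 2 rose (446 to 685 CPM at Day 30 and 702 to 1096 at Day 113, summed). All 5 endoderm and liver markers fell, from 399 to 1166 CPM at Day 30 to 11.1 to 39.0 at Day 113, and 4 of 5 epithelial markers fell (2028 to 2909 and 1172 to 1959 CPM). The 4 proliferation markers were all lower at Day 113 (176 to 338 CPM) than at Day 60 (457 to 674), and at Day 30 they summed to 282 to 354. The skeletal myogenic genes MYOD1 and MYOG summed to at most 1.56 CPM in any library, though 2 of 2 were higher at Day 113 than at Day 30. LIN28A, the pluripotency marker tested, was at 0 in all 4 Day 113 libraries. In bulk RNA, fewer cells of a type and less RNA per cell cannot be told apart.

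Ribosomal protein mRNAs were abundant at each day. Among the 72 genes above 10 CPM, the median gene had a mean of 541 CPM at Day 30, 585 at Day 60 and 511 at Day 113. RPL13A, a large-subunit protein, had the highest mean over all libraries, where the Day 30 wells averaged 1868 ± 29.3 CPM and the Day 113 wells 1746 ± 276 (SD, n = 4 each). RPS27L, a paralog of RPS27, was the lowest of the 72, at 50.8 ± 4.01 and 54.6 ± 13.2 CPM. Per kilobase of coding sequence, which ranged from 75 bases in RPL41 to 1281 in RPL4, the quartiles of these genes lay between 955 and 1492 CPM at Day 30 and between 894 and 1378 at Day 113. On that scale RPL41, a peptide of very few residues whose mRNA is mostly untranslated sequence, stood highest at 4829 ± 316 (SD, n = 4), followed by RPLP1 at 3341 ± 149 and RPL13A at 3068 ± 48.1 (SD, n = 4). The gene with the shortest coding sequence thus stood at the top of this scale.

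Another 5 genes stood far below this range, at a mean of under 10 CPM over the 11 libraries. RPS10, a small-subunit protein, was at 1.30, 1.03, 1.94 and 1.37 CPM in the 4 Day 30 wells. RPS9, RPL36A and RPL17 averaged 0.738, 0.397 and 8.19 CPM over all libraries, and RPL39L averaged 8.33. A ribosome needs RPS9, RPS10, RPL17 and an L36A protein. The exons of RPS10 overlap RPS10-NUDT3, those of RPL17 overlap RPL17-C18orf32 and those of RPL36A overlap RPL36A-HNRNPH2 in GENCODE 29. The RPS10-NUDT3 entry held 0 to 0.894 CPM, and a further entry named RPS9_1 held 0.0382 to 0.522 CPM. The part of overlapping models in these low counts was not tested. In all, 29 of the 77 genes have exons that overlap another gene of the table, and 24 pseudogene entries held 0.290% as many counts as the 77 genes, so single values of such genes are uncertain.

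The share of all counts that fell on the 77 genes was 4.64, 4.91, 5.02 and 4.87% in the Day 30 wells, 4.52, 5.54 and 5.23% in the Day 60 wells and 3.80, 5.58, 4.27 and 4.65% in the Day 113 wells, in the order of the replicate numbers. The Day 30 mean was 4.86 ± 0.160% (SD, n = 4), the Day 60 mean 5.10 ± 0.520% (SD, n = 3) and the Day 113 mean 4.58 ± 0.755% (SD, n = 4). The 3 days overlapped, and the Day 113 wells spanned the whole range from the lowest to the highest library of the series. No test was made of this sum, since its genes were chosen with results known.

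**Figure D1:**
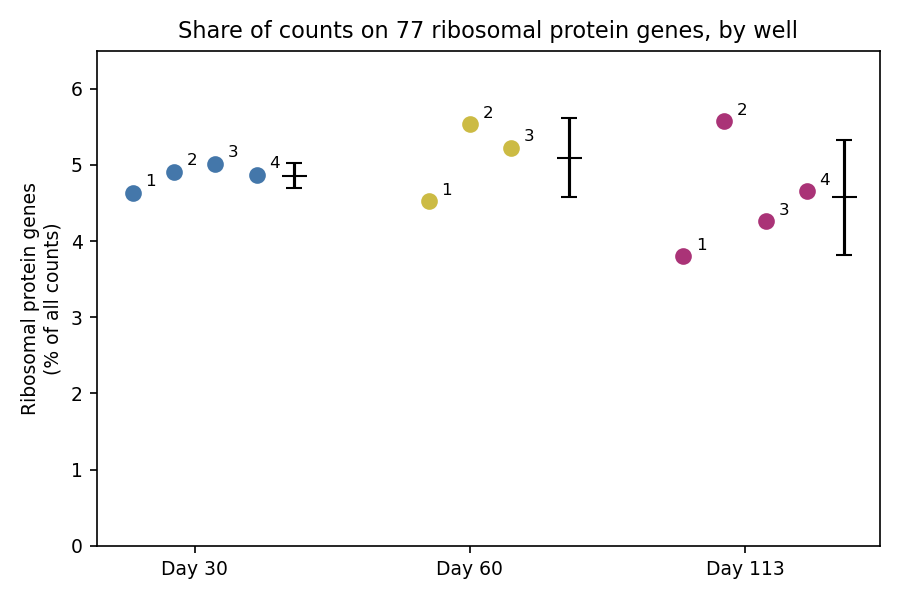
Share of all counts on the 77 ribosomal protein genes (y axis, percent) for each well (points, labelled by replicate number) at Day 30, Day 60 and Day 113, with the mean and SD of each day beside them. The Day 30 wells lie within 4.64 to 5.02%, while the Day 113 wells run from 3.80 to 5.58%.

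At Day 113 the spread between wells was shared by nearly all ribosomal protein genes. At Day 113, replicate 2 had the highest CPM for 74 of the 77 genes (96.1%) and replicate 1 the lowest for 63 (81.8%), where over all 19990 genes these wells were highest for 32.0% and lowest for 28.0%. At Day 60, replicate 2 was highest for 57 genes (74.0%, beside 33.4% of all genes) and replicate 1 lowest for 65 (84.4%, beside 32.1%). At Day 30, replicate 1 was lowest for 50 genes (64.9%, beside 25.7% of all genes), and the highest well was divided, with 5, 33, 18 and 21 genes in replicates 1 to 4. For the 71 genes with a mean of at least 50 CPM, the median deviation from the mean log2 CPM of the day was -0.25, 0.35, -0.10 and 0.00 in Day 113 replicates 1 to 4. The 4 Day 30 wells stayed within -0.05 to 0.03 and the Day 60 wells within -0.14 to 0.12.

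Other values moved with these Day 113 wells. Over 1669 other genes of at least 50 CPM whose coding sequence was no longer than the longest ribosomal protein's, the median deviation was -0.07 in replicate 1 and 0.14 in replicate 2, and over 2672 longer genes it was 0.08 and -0.10. Replicate 1 had the highest endothelial and fibroblast marker sums of the day (734 and 12748 CPM), where replicate 2 had 277 and 6606, replicate 3 had 336 and 11070 and replicate 4 had 179 and 5272. The part of these values in the ribosomal protein levels was not tested. Many, though not all, of the counts below that rest on the Day 113 wells are given with and without replicate 2. The mean share was 4.24% over the other 3 Day 113 wells. Leaving out replicate 2, the high well, lowers the Day 113 level of these genes. Without replicate 1, the low well, the mean share was 4.83%.

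**Figure D2:**
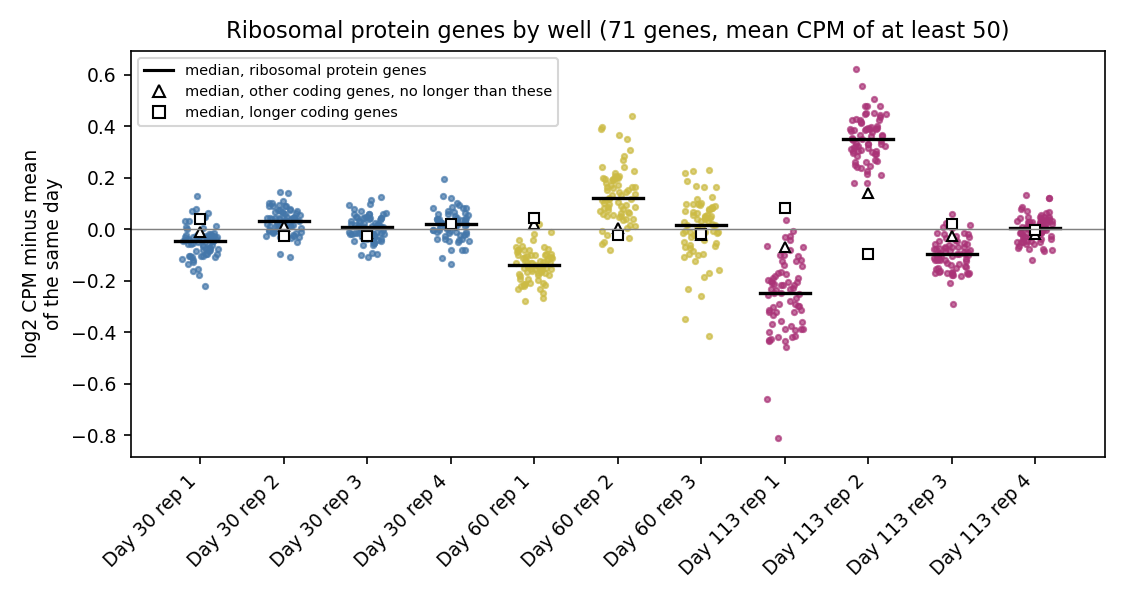
Deviation of each ribosomal protein gene (coloured points, 71 genes with a mean CPM of at least 50) from the mean log2 CPM of its day, by well, with the median as a black line. Open triangles and squares are the medians of other genes with coding sequences up to the longest ribosomal protein's and above it. Day 113 replicate 2 lies at 0.35 and replicate 1 at -0.25.

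Between Day 30 and Day 60 no ribosomal protein gene passed the test. The quasi-likelihood test of edgeR called 0 of 77 at an adjusted p under 0.05, where it called 10.3% of all genes (4.39% higher and 5.91% lower), and DESeq2 and limma-voom also called 0. The gene with an unadjusted p under 0.05 was RPS4X, a small-subunit protein encoded on the X chromosome, with a log2 fold change of 0.25 ± 0.11 (SE; adjusted p = 0.192 by edgeR). The median log2 fold change was 0.06 with 53 of 77 genes above 0, beside -0.01 over all genes. In 5 genes every Day 60 well was above every Day 30 well (10.7% of all genes), namely RPS3A, RPS4X, RPS6, RPS20 and RPL21, and RPS19 was lower in every Day 60 well (14.1% of all genes). The edgeR test took its spread over all 11 libraries, so the spread of the Day 113 wells entered this comparison too. Without Day 113 replicate 2 the test called 1 of the 77 genes.

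Between Day 30 and Day 113 the test called 8 ribosomal protein genes lower and 0 higher. That is 10.4% of the 77, where 34.5% of all genes were called, 17.2% lower and 17.3% higher. At an unadjusted p under 0.05 there were 14 (18.2%, beside 43.1% of all genes), of which RPS6 was the higher one, and DESeq2 called 11 lower and 1 higher and limma-voom 10 lower and 0 higher. Described here are 7 of the 8, RPS19, RPL39L, RPS29, RPLP0, RPL37, RPL12 and RPS2. The median log2 fold change of the 77 genes was -0.08, with 58 below 0, beside -0.02 over all genes. Among genes with a mean of at least 50 CPM, 7 of 71 ribosomal protein genes (9.86%) and 2130 of 4480 genes in all (47.5%) were called. Without Day 113 replicate 2 these shares were 33.8% and 49.0%, still lower for the ribosomal protein genes. Counting lower calls alone, they were 9.86% and 24.1% with all wells and 33.8% and 25.3% without that well. Replicate 2 was the highest Day 113 well for most of these genes, and replicate 1 the lowest. Without replicate 1 the median log2 fold change of the 77 genes was 0.01, so the direction depended on which well was left out.

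RPS19, a small-subunit protein whose gene is mutated in many patients with Diamond-Blackfan anaemia, had the lowest adjusted p (chr19:41859918-41872926, plus strand, GENCODE 29, GRCh38). Its level was 722, 816, 730.2 and 700.3 CPM in the Day 30 wells, 542, 674 and 638 in the Day 60 wells and 392, 646, 429 and 496 in the Day 113 wells. The 3 Day 60 wells lay below all Day 30 wells, and all Day 113 wells did too, with Day 113 replicate 2 inside the Day 60 range. The log2 fold change from Day 30 to Day 113 was -0.60 ± 0.13 (SE; adjusted p = 0.00261 by edgeR), and it kept its call under each of 21 alternatives, with an adjusted p of at most 0.0116.

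RPLP0 anchors the stalk of the large subunit, on which the paired acidic proteins RPLP1 and RPLP2 recruit elongation factors, and RPL12 binds beside its base. RPLP0 (chr12:120196686-120201235) was at 1896, 2019.7, 2091 and 2114 CPM at Day 30 and 1087, 1832, 1447 and 1593 at Day 113, and the days did not overlap. The change was -0.45 ± 0.13 (SE; adjusted p = 0.012 by edgeR). RPL12 (chr9:127447674-127451405) was at 496, 537, 498 and 490.3 CPM at Day 30 and 365, 478, 348 and 388 at Day 113, again without overlap, with a log2 fold change of -0.36 ± 0.11 (SE; adjusted p = 0.0179 by edgeR). RPLP1 (-0.15 ± 0.14) and RPLP2 (-0.09 ± 0.15) did not pass (adjusted p = 0.44 and 0.678 by edgeR). Of 21 alternatives, both passed in only 1, without Day 113 replicate 2, the well of the day where both were highest. There RPLP1 had -0.31 (adjusted p = 0.0351) and RPLP2 -0.29 (adjusted p = 0.0382, both by edgeR). All 4 stalk genes were lower in that fit, with a median of -0.39.

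RPS29 (chr14:49570984-49599164), a small zinc-binding protein of the small subunit, was at 122, 131, 124 and 125 CPM at Day 30 and 68.1, 112, 86.5 and 89.3 at Day 113, with no overlap. The change was -0.50 ± 0.14 (SE; adjusted p = 0.0113 by edgeR), though its exons overlap LRR1 on the opposite strand and strand use in counting was not stated. RPL37 (chr5:40825262-40835335), a large-subunit protein, was at 376, 356, 415 and 392 CPM and then 220.0, 366, 292 and 294. The days overlapped only in that Day 113 replicate 2 exceeded Day 30 replicate 2. Its log2 fold change was -0.39 ± 0.13 (SE; adjusted p = 0.0241 by edgeR).

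RPS2 (chr16:1962052-1964860), a core protein of the small subunit, was at 1674, 1743, 1722 and 1679 CPM at Day 30 and 1103, 1688, 1280.0 and 1414 at Day 113. Of the Day 113 wells, 3 lay below all Day 30 wells and replicate 2 lay among them. The log2 fold change was -0.31 ± 0.11 (SE; adjusted p = 0.0443 by edgeR). RPL39L is described with its partner RPL39.

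Without the high well, Day 113 replicate 2, the test called 25 genes lower and 0 higher, where 17.6% of all genes were called lower. Those 25 included all 8, and the median log2 fold change was -0.21. By CPM, the days did not overlap for 38 genes, all lower at Day 113 (21.6% of all genes lower and 20.2% higher over the same wells), where with all wells they did not for 4, RPS19, RPS29, RPLP0 and RPL12 (18.0% of all genes lower and 17.1% higher without overlap). Without Day 113 replicate 1 the median was 0.01, and without Day 113 replicate 3 the test called 3 genes. RPS19, RPS29 and RPLP0 kept their call under each of the 21 alternatives. RPL12 lost it without Day 30 replicate 2 or Day 113 replicate 3 (adjusted p up to 0.0634), and RPL37 without Day 30 replicates 3 or 4 or Day 113 replicates 1 or 3 (up to 0.0701). RPL39L lost it in 6 cases (Day 30 replicates 2, 3 and 4, Day 113 replicates 1, 3 and 4; up to 0.0879). RPS2 lost it in 9, without any Day 30 well, Day 60 replicates 1 or 3 or Day 113 replicates 1, 3 or 4 (up to 0.118). These 7 stayed below 0 in every alternative run.

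**Figure D3:**
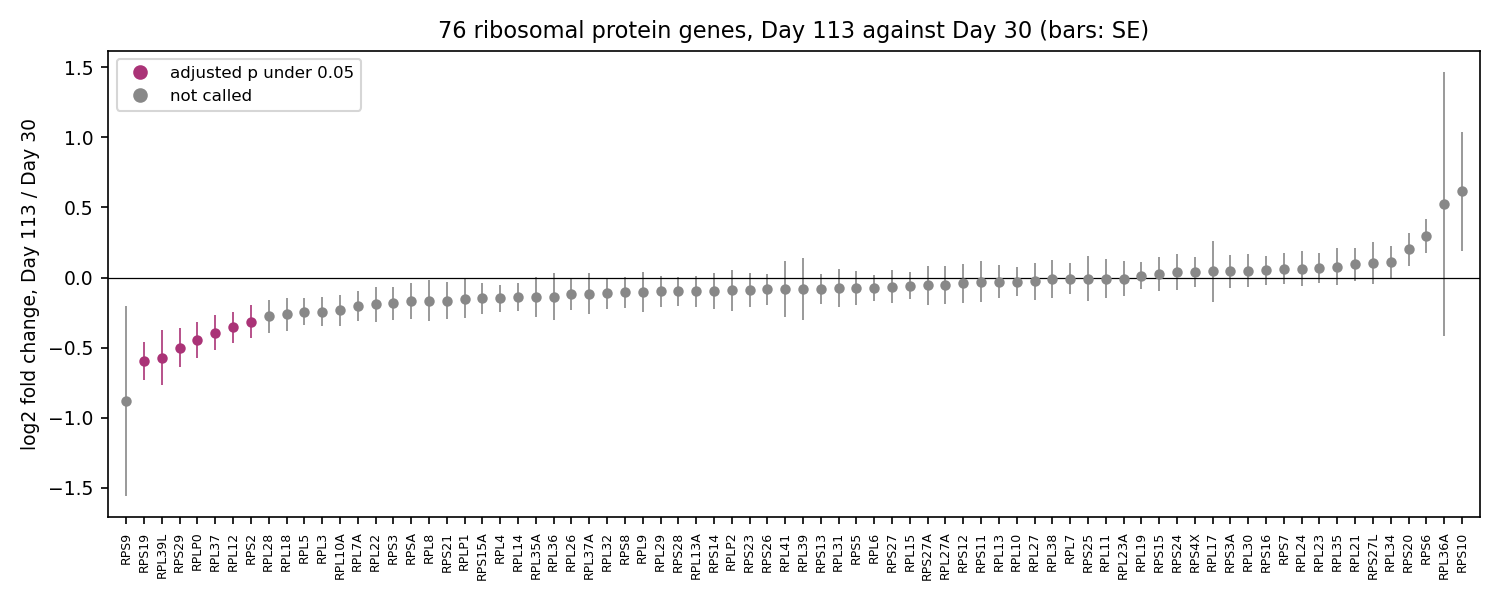
Log2 fold change from Day 30 to Day 113 (y axis) with its SE (bars) for 76 ribosomal protein genes, ordered by value along the x axis. Purple points are the 7 genes called at an adjusted p under 0.05, all below 0.

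The highest log2 fold change above 50 CPM was that of RPS6, the small-subunit protein that S6 kinases phosphorylate downstream of mTOR (chr9:19375715-19380254). RPS6 was at 761, 809, 777 and 799 CPM at Day 30, 847, 993 and 1015 at Day 60 and 808, 1256, 872 and 927 at Day 113. All Day 60 wells lay above all Day 30 wells, while Day 113 replicate 1 lay within the Day 30 range. The log2 fold change from Day 30 to Day 113 was 0.30 ± 0.12 (SE), which did not pass (adjusted p = 0.0732 by edgeR). It passed in DESeq2, with the replicate block and without Day 113 replicate 1, with adjusted p-values of 0.0232 to 0.214 over all 21 alternatives. RPS20, another small-subunit protein, had 0.20 ± 0.12 (SE; adjusted p = 0.203 by edgeR).

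Between Day 60 and Day 113 the test called 4 ribosomal protein genes lower and 1 higher. These 5 were 6.49% of the 77, where 24.0% of all genes were called, 11.1% lower and 12.9% higher. The median log2 fold change was -0.15, with 71 of 77 genes below 0, beside 0.00 over all genes. RPL5, which forms a particle with RPL11 and 5S ribosomal RNA that can bind MDM2, was at 1139.8, 1225 and 1305 CPM at Day 60 and 886, 1114, 887 and 980.0 at Day 113. The days did not overlap, and the change was -0.34 ± 0.10 (SE; adjusted p = 0.0236 by edgeR). RPS2 (-0.39 ± 0.12, adjusted p = 0.031), RPL26 (-0.34 ± 0.12, adjusted p = 0.0492) and RPL12 (-0.33 ± 0.12, adjusted p = 0.049) were also lower (SE and edgeR values).

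By CPM the 2 days did not overlap for RPL5, lower at Day 113 (14.4% of all genes), and for RPS10, higher (16.2% of all genes). The call upwards between these days was RPS10, at 0.734, 1.22 and 0.568 CPM at Day 60 and 1.85, 2.14, 1.26 and 3.45 at Day 113. Its level was a few CPM, its log2 fold change was 1.37 ± 0.48 (SE; adjusted p = 0.0496 by edgeR), and the call was lost in 14 of 21 alternatives (adjusted p up to 0.155), among them the fits without any Day 30 well, Day 60 replicates 1 or 3 or Day 113 replicates 1, 2 or 4. With the size factors of DESeq2 in edgeR the split was 0 higher and 5 lower. Without Day 113 replicate 2, the highest Day 113 well for most of these genes, the test called 31 genes lower and 0 higher. In that fit 11.4% of all genes were lower and 12.5% higher. Without Day 60 replicate 3 it called 0. RPS2 and RPL5 lost their call without Day 60 replicates 2 or 3 or Day 113 replicates 1 or 3 (adjusted p up to 0.116 and 0.0928). RPL12 lost it without Day 30 replicates 1, 3 or 4, Day 60 replicates 2 or 3 or Day 113 replicates 1, 3 or 4 (up to 0.194), and RPL26 without any of these or Day 30 replicate 2 and with the replicate block (up to 0.223).

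Whether the second interval differed from the first was tested as the difference of the 2 changes. The test called 0 of 77 ribosomal protein genes, where 9.34% of all genes were called (4.97% above 0 and 4.38% below). At an unadjusted p under 0.05 there were 7 (9.09%, beside 24.2% of all genes), namely RPL5, RPL26, RPS2, RPS4X, RPS10, RPS15A and RPS27L. DESeq2 called 2 and limma-voom 0. The median difference was -0.21, with 69 of 77 genes below 0, beside 0.01 over all genes. Both intervals share the Day 60 wells. The test called 5 genes, all below 0, without Day 113 replicate 2.

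RPL3 sits close to the site of peptide bond formation and is the protein that RPL3L replaces in striated muscle. Its level (chr22:39312882-39320389, minus strand) was 1829.9, 1959.9, 1937 and 1900.0 CPM at Day 30, 1922, 1930.0 and 1961 at Day 60 and 1372, 1968, 1546 and 1556 at Day 113. Day 113 replicates 1, 3 and 4 lay below the 7 earlier wells and replicate 2 above them all. The log2 fold change from Day 30 to Day 113 was -0.24 ± 0.10 (SE; adjusted p = 0.0841 by edgeR), which did not pass. Without Day 113 replicate 2 it was -0.35 and passed (adjusted p = 0.00248), and it also passed in DESeq2 and limma-voom.

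Pairs of a general and a related form were compared as a log2 ratio of counts within each library, in 12 exact permutation tests adjusted together. These pairs were chosen after their values were seen, and the smallest p such a test allowed was 0.0286. RPL39 lines the exit tunnel of the large subunit, and RPL39L is a paralog known from testis and from dividing cells. RPL39L had 5.45, 6.27, 5.65 and 5.60% as many counts as RPL39 in the Day 30 wells, 5.30, 4.36 and 7.98% at Day 60 and 5.48, 3.63, 4.29 and 3.82% at Day 113. Of the 4 Day 113 wells, 3 were below all Day 30 wells, and the log2 ratio differed by -0.43 (exact p = 0.0571, two-sided; adjusted p = 0.114). By CPM, RPL39L was at 7.79, 9.77, 10.3 and 10.7 at Day 30 and 4.65, 8.36, 6.68 and 6.26 at Day 113, a log2 fold change of -0.57 ± 0.20 (SE; adjusted p = 0.0321 by edgeR). RPL39 had -0.08 ± 0.22 (SE; adjusted p = 0.816 by edgeR), with the largest SE of the 71 genes above 50 CPM.

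RPS27L, a paralog of RPS27 that p53 is known to induce, had 11.8 to 14.1% as many counts as RPS27 at Day 30, 8.77 to 12.0% at Day 60 and 12.8 to 15.6% at Day 113. The Day 60 and Day 113 wells did not overlap, with a difference in log2 ratio of 0.47 (exact p = 0.0286, two-sided; adjusted p = 0.114). RPL22L1, a paralog of RPL22, had 5.88 to 7.41% as many counts as RPL22 at Day 30, 3.50 to 5.46% at Day 60 and 4.90 to 10.1% at Day 113. Its ratio was lower in every Day 60 well than in every Day 30 well (difference -0.68 on the log2 scale, exact p = 0.0286, two-sided; adjusted p = 0.114). The RPL22L1 gene itself was at 17.2, 20.6, 20.3 and 23.2 CPM at Day 30, 14.7, 12.6 and 12.0 at Day 60 and 22.5, 20.3, 17.0 and 12.6 at Day 113. It fell by Day 60 (-0.63 ± 0.18, SE; adjusted p = 0.0384 by edgeR), a call that was lost without any of Day 30 replicates 2, 3 and 4 or any Day 60 well (adjusted p up to 0.155). RPL26L1 had 2.28 to 3.60% as many counts as RPL26 at Day 30, 2.20 to 2.65% at Day 60 and 3.07 to 4.74% at Day 113, a log2 ratio higher by 0.72 at Day 113 than at Day 60 (exact p = 0.0571, two-sided; adjusted p = 0.114). None of the 12 ratio tests passed after adjustment, and since 7 of them would have had to reach the smallest p for any to pass, this says little about the ratios.

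Since ribosomal protein genes differed together between the wells of Day 113 and, for most genes, of Day 60, each gene was also taken as a share of the counts on the 77 genes of its library. On that scale 15 genes were higher in every Day 113 well than in every Day 30 well, 12 were lower and 50 overlapped. On the same scale 19.0% of all genes were higher and 11.2% lower without overlap, so the 15 higher of 77 were near the share of all genes. From Day 30 to Day 60, 7 genes were higher and 6 lower in this way (6.90% and 15.7% of all genes), and from Day 60 to Day 113 again 7 and 6 (20.2% and 6.28% of all genes). RPS6 took 1.62, 1.63, 1.58 and 1.62% of the ribosomal protein counts in the Day 30 wells, 1.81, 1.81 and 1.95% at Day 60 and 2.13, 2.22, 2.08 and 2.06% at Day 113. Its Day 113 share was 1.32 times its Day 30 share, and the 3 days did not overlap. RPS19 took 1.53, 1.64, 1.49 and 1.42% at Day 30, 1.16, 1.23 and 1.22% at Day 60 and 1.03, 1.14, 1.02 and 1.10% at Day 113, or 0.708 times its Day 30 share, with each day below the one before.

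The other genes with a higher share were RPS20 (1.24 times), RPL34, RPL21, RPL23, RPS7, RPL35, RPL24, RPS16, RPS4X, RPL30, RPS3A, RPS24, RPL19 and RPL7, all from 1.07 to 1.24 times their Day 30 share. Those with a lower share were the 8 genes called by CPM and RPL18, RPL3, RPL10A and RPL22. RPLP0 took 4.02, 4.06, 4.26 and 4.28% of the ribosomal protein counts at Day 30 and 2.87, 3.24, 3.45 and 3.55% at Day 113, a fold of 0.788. RPL3 took 3.88, 3.94, 3.94 and 3.84% and then 3.62, 3.48, 3.69 and 3.46%, a fold of 0.913. A share can rise because the other genes fall, so these folds order the genes against each other and give no direction of their own. Leaving out Day 113 replicate 2, 17 genes had a higher share without overlap, 13 a lower one and 47 overlapped, where 31.2% of all genes were higher and 11.8% lower over the same wells. No test was made on the shares.

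**Figure D4:**
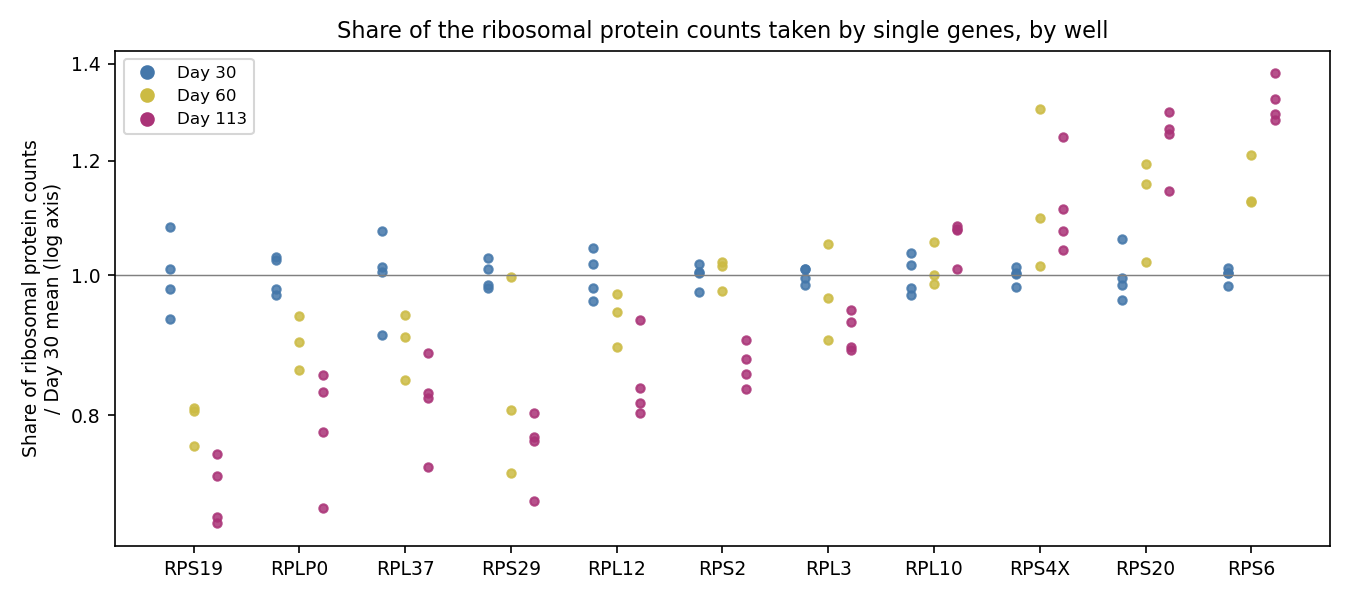
Share of the counts on the 77 ribosomal protein genes taken by single genes, divided by the gene's mean share at Day 30 (y axis, log scale), for each well (points) coloured by day. The genes were chosen after their values were seen, and RPS19 ends at 0.708 and RPS6 at 1.32 times the Day 30 mean at Day 113.

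Genes of the ribosome and its cofactors outside the rule were compared by lists. Of 7 further ribosome components, 1 was called from Day 30 to Day 113 (14.3%, beside 34.5% of all genes). It was RACK1, a scaffold protein on the small subunit. RACK1 was at 971, 978, 949.7 and 932 CPM at Day 30 and 652, 840.0, 643 and 689 at Day 113 (-0.44 ± 0.10, SE; adjusted p = 0.00199 by edgeR), and the days did not overlap. It kept its call under each of 21 alternatives.

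Of 13 other genes whose mRNAs are known to carry a TOP tract, mostly translation factors of which 9 also stand in another list, 8 were lower and 0 higher at Day 113 than at Day 30, with a median log2 fold change of -0.37. That is 61.5% of the list, where 17.2% of all genes and 24.1% of genes with a mean of at least 50 CPM were lower. The unadjusted p was also under 0.05 for 8. The 8 were PABPC1, EIF3E, EEF2, NAP1L1, EIF3F, EEF1G, EIF4B and EEF1A1. EEF2, which moves the ribosome along the mRNA, was at 3872, 3683, 3730.1 and 3435 CPM at Day 30 and 2198, 2548, 2279 and 2208 at Day 113 (-0.67 ± 0.09, SE; adjusted p = 3.1e-05 by edgeR). PABPC1, the poly(A)-binding protein, fell by 0.81 on the log2 scale (SE 0.11; adjusted p = 3.1e-05 by edgeR). Neither gene's days overlapped. With Day 113 replicate 2 left out the list had 9 lower and 0 higher, where 17.6% of all genes were lower. Of the 8 genes of this list with a promoter in the table, 6 (75.0%) held the run. From Day 60 to Day 113, 8 of the 13 were again lower and 0 higher, where 11.1% of all genes were lower.

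Of 12 elongation and termination factors, 4 were lower and 1 higher at Day 113 than at Day 30. These 5 were 41.7% of the list, beside 34.5% of all genes and 47.5% of genes with a mean of at least 50 CPM. Both forms of the factor that brings aminoacyl-tRNA to the ribosome fell. EEF1A1, the general form, was at 11765, 12849, 12576 and 12857 CPM at Day 30 and 9103, 11225, 9439 and 10231 at Day 113 (-0.32 ± 0.10, SE; adjusted p = 0.021 by edgeR), a call lost without Day 30 replicate 2 or Day 113 replicate 3 (adjusted p up to 0.0611). EEF1A2, the form known from adult muscle, heart and neurons, was at 1192, 1101, 1034 and 1114 CPM at Day 30 and 421, 585, 452 and 450.2 at Day 113 (-1.22 ± 0.11, SE; adjusted p = 9.1e-07 by edgeR). EIF5A, which helps elongation through proline stretches, rose (0.36 ± 0.10, SE; adjusted p = 0.00792 by edgeR).

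Of 32 initiation factors tested, 9 were lower and 6 higher, with a median of 0.00. EIF3E (-0.70 ± 0.10) and EIF3D (-0.53 ± 0.08), subunits of the eIF3 complex, had the lowest log2 fold changes (SE; adjusted p = 4.9e-05 and 1.1e-04 by edgeR). EIF4G2, a relative of eIF4G without the region that binds eIF4E, had the highest, from 711, 732, 734 and 746 CPM at Day 30 to 1158, 1261, 1209.7 and 1294 at Day 113 (0.75 ± 0.08, SE; adjusted p = 4.3e-06 by edgeR). EIF2B3, a subunit of the exchange factor for eIF2, rose as well (0.63 ± 0.13, SE; adjusted p = 0.00141 by edgeR). These 15 were 46.9% of the list, beside 34.5% of all genes and 47.5% of genes with a mean of at least 50 CPM. Leaving out Day 113 replicate 2, it had 10 lower and 6 higher, and the elongation and termination factors had 5 lower and 1 higher.

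Transcripts that host small nucleolar RNAs, which guide the modification of ribosomal RNA from their introns, were lower in 7 of 11 and higher in 0, with a median of -0.65. The 7 were 63.6% of the list, where 17.2% of all genes were lower. At an unadjusted p under 0.05 there were 9 of 11, beside 43.1% of all genes. Without Day 113 replicate 2 the test called 10 lower and 0 higher, where 17.6% of all genes were lower. SNHG16 was at 178, 184, 182 and 187 CPM at Day 30, 142, 126 and 145 at Day 60 and 76.7, 89.7, 68.6 and 79.1 at Day 113 (-1.22 ± 0.09, SE; adjusted p = 1.1e-07 by edgeR). The wells of each day lay below those of the day before. EPB41L4A-AS1 had -1.06 ± 0.14 (SE; adjusted p = 2.2e-05 by edgeR), with exons that overlap its antisense partner.

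Of 55 ribosome biogenesis factors, 15 were higher and 7 lower at Day 113 than at Day 30, with a median of 0.05, where 17.3% of all genes were higher and 17.2% lower. Without Day 113 replicate 2 the counts were 10 and 9, near the 16.4% and 17.6% of all genes in that fit. UTP20 (0.91 ± 0.19) and LTV1 (0.69 ± 0.16), which act in small-subunit maturation, had the highest log2 fold changes (SE; adjusted p = 0.00149 and 0.00309 by edgeR). PPAN (-1.06 ± 0.24), a large-subunit assembly factor, and RRP12 (-0.98 ± 0.14), which acts in the export of subunits, had the lowest (SE; adjusted p = 0.00284 and 7.5e-05 by edgeR). Of 10 RNA polymerase I genes tested, UBTF rose (0.72 ± 0.10, SE; adjusted p = 4.5e-05 by edgeR) and TAF1D fell (-0.60 ± 0.10, SE; adjusted p = 2.0e-04 by edgeR). UBTF binds the ribosomal RNA genes, and TAF1D belongs to the selectivity factor of the same polymerase. The exons of TAF1D overlap several small nucleolar RNAs and coding genes of the table.

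Of 19 genes of the MYC and mTOR pathways, which act on the making of ribosomal proteins, 5 were higher and 2 lower, with and without Day 113 replicate 2. These 7 were 36.8% of the list, near the 34.5% of all genes. MYCN was at 35.4, 34.8, 35.6 and 33.1 CPM at Day 30, 21.1, 19.5 and 13.3 at Day 60 and 2.45, 3.11, 5.31 and 4.29 at Day 113 (-3.19 ± 0.22, SE; adjusted p = 3.6e-08 by edgeR). MYC was at 1.99, 4.10, 3.09 and 2.65 CPM at Day 30, 0.83, 2.69 and 0.631 at Day 60 and 8.80, 6.19, 8.70 and 4.01 at Day 113 (1.23 ± 0.40, SE; adjusted p = 0.0266 by edgeR). The fall of MYCN held under each of 21 alternatives, while the rise of MYC was lost in 6, without Day 30 replicates 1, 3 or 4, Day 113 replicates 1 or 3, or both Day 113 replicates 1 and 2 (adjusted p up to 0.107). DEPTOR, an inhibitor of mTOR, rose from a low level (1.81 ± 0.41, SE; adjusted p = 0.00273 by edgeR). EIF4EBP2, a repressor of cap-dependent initiation, had -0.25 ± 0.08 (SE; adjusted p = 0.0249 by edgeR), a call lost without Day 30 replicates 1 or 3 and without both Day 113 replicates 1 and 2 (adjusted p up to 0.112). The endothelial, smooth muscle, endoderm and liver, and epithelial marker sums given above also moved between Day 30 and Day 113, while the fibroblast sums of these days overlapped. The part of these marker changes in the changes of the lists was not tested.

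**Figure D5:**
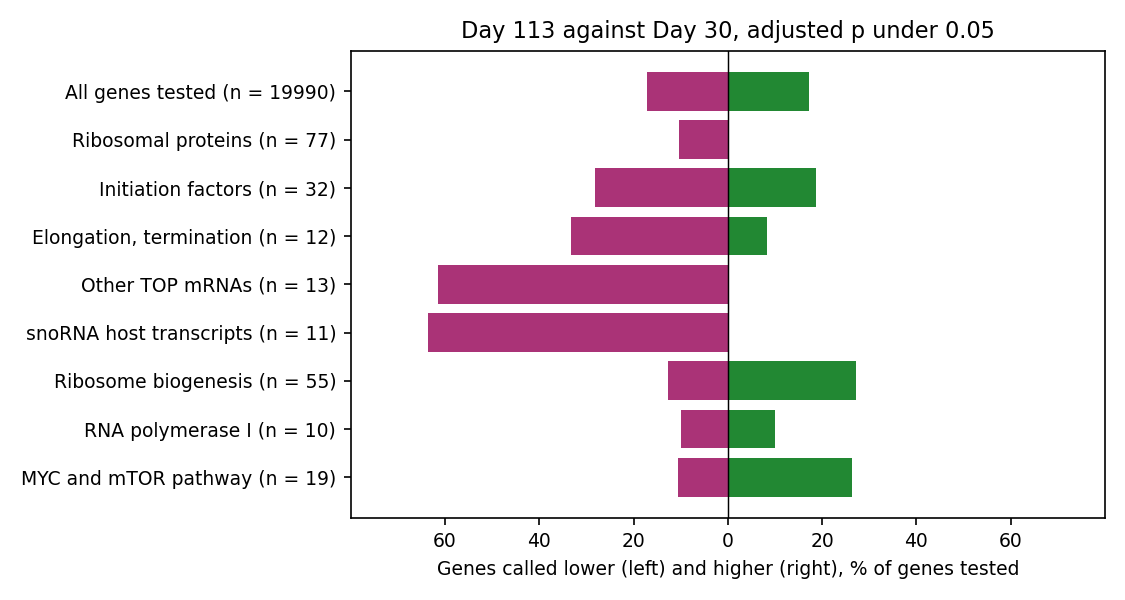
Percent of the genes of each list called lower (bars to the left) and higher (bars to the right) between Day 30 and Day 113, with the number tested beside each name. All genes reach 17.2% lower and 17.3% higher, and the 77 ribosomal protein genes have 8 lower and 0 higher.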

How the data were processed

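Poly(A) libraries from 500 ng of total RNA of 11 wells were sequenced as paired 150-base reads. The authors deposited a table of read counts per gene; STAR 2.5.3a, featureCounts 2.0.3 and hg38 are named in the submitters' processing notes, and the annotation, strand setting and treatment of multiply mapped reads are not given in the sources used here. Library totals were 24071375 to 34546715 counts, and p-values and intervals carry no more than the spread between wells. The authors also deposited a TPM table. For the ribosomal protein genes, the ratio of count to TPM had a median Spearman rho of -0.03 over 55 library pairs and the TPM of RPL3 ran from 68.1 to 10516 while its counts ran from 38781 to 62183, so TPM was used for no result.

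The counts were fitted with edgeR 4.0.16 (R 4.3.3) by the quasi-likelihood test over all 11 libraries and 19990 genes, with day as the factor, TMM scaling and the edgeR filter at a minimum count of 10, which removed none. P-values were adjusted by Benjamini-Hochberg over all genes, with a threshold of 0.05. Each SE was taken as the size of the log2 fold change over the root of its F statistic. CPM uses the TMM library sizes. DESeq2 1.42.0 and limma 3.58.1 were alternatives, beside other scalings, filters, a robust fit, a replicate block and leaving out each well. The scripts were tested on simulated data. The ratio of RPL3L to RPL3 was planned and not computed, since RPL3L was not analysed here. Ratios of 4 other pairs took its place, on log2 counts with a pseudocount of 0.5, and the fit without Day 113 replicates 1 and 2 was added, both after seeing the data.

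The members and lists were chosen with earlier results of these data known. Named genes were the ribosomal protein genes, the 5 highest and 5 lowest that passed between any 2 days, the paralogs and stalk proteins, from each other list the 2 highest and 2 lowest that passed from Day 30 to Day 113, and EEF1A1 and EEF1A2. RPS6 and RPS20 were singled out, and the other genes of the TOP list were named, after their values were seen. A gene that passed is counted in the totals and not reported here.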

Additional observations from a re-analysis of the deposited data

Results flagged for a closer look

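In 3 of 102 groups of 4 wells, a single well lay apart from the other 3 by more than Dixon's 95% critical value, which chance gives in about 1 group in 20. RPL12 was at 537 CPM in Day 30 replicate 2, where the other Day 30 wells had 490.3 to 498 CPM. EIF5A was at 244 CPM in Day 113 replicate 2, where the others had 190.3 to 193 CPM. RRP12 was at 34.8 CPM in Day 30 replicate 1, where the others had 28.4 to 29.2 CPM.

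The change from Day 60 to Day 113 differed from that of Day 30 to Day 60 in 5 named genes, none of them a ribosomal protein under the rule, by the edgeR test of the difference itself. The differences on the log2 scale were -0.86 for EEF1A2 (adjusted p = 0.0177), 0.75 for UBTF (adjusted p = 0.0242), 3.44 for MYC (adjusted p = 0.0210), -1.29 for MYCN (adjusted p = 0.0385) and 1.10 for RPL22L1 (adjusted p = 0.0490).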

How the results depend on the processing

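The count of ribosomal protein genes called depended on single wells. Leaving out 1 well at a time, it ran from 0 to 1 for Day 60 against Day 30, from 0 (without Day 60 replicate 3) to 31 (without Day 113 replicate 2) for Day 113 against Day 60, from 3 (without Day 113 replicate 3) to 25 (without Day 113 replicate 2) for Day 113 against Day 30, and from 0 to 5 for the difference between the intervals. The median log2 fold changes ran from -0.01 to 0.14, from -0.28 to -0.07 and from -0.21 to 0.01, and the mean shares of counts from 4.81 to 4.93% at Day 30, 4.88 to 5.38% at Day 60 and 4.24 to 4.83% at Day 113. Without both replicates 1 and 2 of Day 113, chosen after seeing the data, the counts were 1, 15 and 14, and 3 for the difference. At an adjusted p under 0.01, 0 genes were called for Day 113 against Day 60 and 1 against Day 30. Of the Day 113 against Day 60 calls, upper-quartile scaling gave 8 and DESeq2 9, and for the difference DESeq2 called 2. Outside each library's 10 most abundant genes the share was 5.32% at Day 30 and 5.66% at Day 60. Upper-quartile scaling moved the median difference between intervals over all genes to -0.10. The cause of these moves was not tested.

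The deviations of each well from the mean log2 CPM of its day were correlated between days, over genes with a mean of at least 1 CPM. Same-numbered wells of different days had correlations of 0.0262 to 0.197 over 10 pairs, all above 0, of which 6 exceeded 0.1. Wells with different numbers had correlations of -0.148 to 0.164. Over the 77 ribosomal protein genes alone the correlations had both signs, from -0.477 to 0.569 for same-numbered wells and from -0.612 to 0.728 for the others. The main fit did not use the numbers as pairs, and whether same-numbered wells share a source was not tested. Over the genes of at least 1 CPM, 8 of 11 libraries correlated best with their own number. With the replicate block the counts were 0, 7 and 12, and 0 for the difference. Of the results for single genes and ratios, 2892 kept their side of the threshold, 109 lost and 69 gained it, and none that was called changed sign. The alternatives planned for the ratio of RPL3L to RPL3 were not run. The largest SEs of a change from Day 30 to Day 113 among the ribosomal protein genes were those of RPL36A, RPS9 and RPS10, the 3 with the lowest counts.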
